A study of Homo sapiens with 4 samples.

Results

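The genes of the mitochondrial ribosome were followed in K562 cells before and after treatment with hemin. They were taken by name, as all genes whose symbol is MRPL or MRPS followed by a number and, at most, 1 letter. This gave 79 gene identifiers with 78 symbols among the 61498 genes of the deposited tables, because MRPS5 is annotated under a pair of identifiers. Of these, 51 encode proteins of the large subunit, 27 proteins of the small subunit, and 1, MRPS36, carries the name but encodes a subunit of the oxoglutarate dehydrogenase complex. MRPS18A and MRPS30 were counted with the large subunit, where their proteins sit despite the letter in their names. The members lie on 21 different chromosomes.

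Poly(A) RNA was sequenced from K562, a human erythroleukemia line that makes more haemoglobin when it is given hemin, the iron-containing porphyrin of haemoglobin. The untreated group had 2 libraries, and the hemin group had 2 libraries of cells kept with 50 µM hemin for 108 h, which the labels describe as erythroid differentiation. The labels give no other agent and no genetic change for either group, and both are the same line. The labels do not say whether the libraries of a group came from separate cultures, so the p-values measure the spread between these libraries, which may be technical.

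The mitochondrial ribosome translates the few proteins that are encoded in mitochondrial DNA, which are core subunits of the respiratory chain and of the ATP synthase. Its RNA is transcribed inside the organelle, whereas its proteins are encoded in the nucleus, made in the cytosol and imported. Some of these proteins descend from bacterial ribosomal proteins and others are found only in mitochondria, and erythroid cells depend on mitochondria for the first and last steps of heme synthesis.

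Expected counts, the read numbers that RSEM estimated for each gene, gave library totals between 7455447 and 8241534, of which 12.8% to 13.6% lay on the mitochondrial genome. All 12 erythroid markers that were looked up passed the count filter, and of these 3 rose, including the globin genes HBZ and HBE1, and 1 fell. None of 10 lymphoid and myeloid markers passed it, and none of them averaged above 0.873 TPM (transcripts scaled by length and depth) over the libraries. Of 8 epithelial and fibroblast markers 2 passed, EPCAM at 42.4 to 49.2 TPM and COL1A2 at 3.29 to 5.16 TPM, and neither was called changed.

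Some of the promoters of these genes hold the same letters near the RefSeq start of transcription. RefSeq promoters (250 bases before to 50 bases after the start, GRCh38.p14) were matched by symbol for 69 of the 78 symbols, and 7 motifs were searched on both strands. The symbols without a match were MRPL2, MRPL10, MRPL13, MRPL15, MRPL21, MRPL23, MRPL35, MRPS28 and MRPS36. None of these motifs contains another. AAGATGGC, the core recognised by YY1, was found in 20 of the 69 promoters (29.0%), against 5.72% of the 10024 matched promoters of tested genes and 3.03% of all 27305 promoters. In 15 of them it stood on the gene's own strand within the 50 bases after the start, which was the case in 21.7% of the member promoters, 3.29% of those of tested genes and 1.39% of all. This narrower window was chosen after the matches were seen. The 15 windows are shown because they hold the same letters at a similar place, although the shorter SP1 and ETS letters described below were found in more of the promoters. Capitals mark AAGATGGC, each line reads 5′ to 3′ along the gene, and the coordinates are those of GRCh38.p14.

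MRPS30, chr5:44808952-44808975, plus strand: cgcgggcaAAGATGGCggcggcca

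MRPL20, chr1:1407263-1407286, minus strand: acccgggcAAGATGGCagcggcgc

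MRPS24, chr7:43869483-43869506, minus strand: cttggcccAAGATGGCggcctccg

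MRPS27, chr5:72320209-72320232, minus strand: tacgctccAAGATGGCtgcctcca

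MRPL51, chr12:6493226-6493249, minus strand: taaggcccAAGATGGCtgtcttcg

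MRPS18B, chr6:30617855-30617878, plus strand: cgtacgtcAAGATGGCggcgtctg

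MRPL42, chr12:93467514-93467537, plus strand: attgaaacAAGATGGCgggttcgt

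MRPL45, chr17:38297173-38297196, plus strand: gcgggaacAAGATGGCagccccca

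MRPS7, chr17:75261890-75261913, plus strand: ggccagccAAGATGGCtgcccccg

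MRPL22, chr5:154941100-154941122, plus strand: gagggcgaAAGATGGCggcggca

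MRPL38, chr17:75904863-75904886, minus strand: ccggagggAAGATGGCggcgccct

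MRPS18A, chr6:43687767-43687790, minus strand: ggtttttgAAGATGGCggccctca

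MRPS10, chr6:42217837-42217860, minus strand: ggaccggcAAGATGGCggcgcgga

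MRPL46, chr15:88467365-88467388, minus strand: gagaacgaAAGATGGCggcgcccg

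MRPL50, chr9:101398580-101398603, minus strand: tctcatcgAAGATGGCggcgcgat

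The letters of the ETS family, CCGGAAG, which GABPA recognises, stood in 29 of the 69 member promoters (42.0%), against 20.5% of the promoters of tested genes and 10.7% of all promoters. Either the YY1 or the ETS letters were present in 41 member promoters (59.4%), against 24.8% and 13.1%. The other motifs were no more frequent than among tested genes. NRF1 (GCGC, any base, then TGCGC), a regulator of many nuclear genes for mitochondrial proteins, matched 11.6% of member promoters and 12.4% of those of tested genes. SP1 (GGGCGG) matched 60.9% and 70.1%, the E-box bound by MYC (CACGTG) 8.70% and 10.3%, and NFY (CCAAT) 29.0% and 37.4%. The letters of ESRRA (TCAAGGTCA) were in none of the 69 windows and in 0.17% of those of tested genes. Member promoters had a median GC content of 60.3%, against 65.3% for tested genes and 58.3% for all. These are matches of letters, and binding of the factors was not measured.

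**Figure D1:**
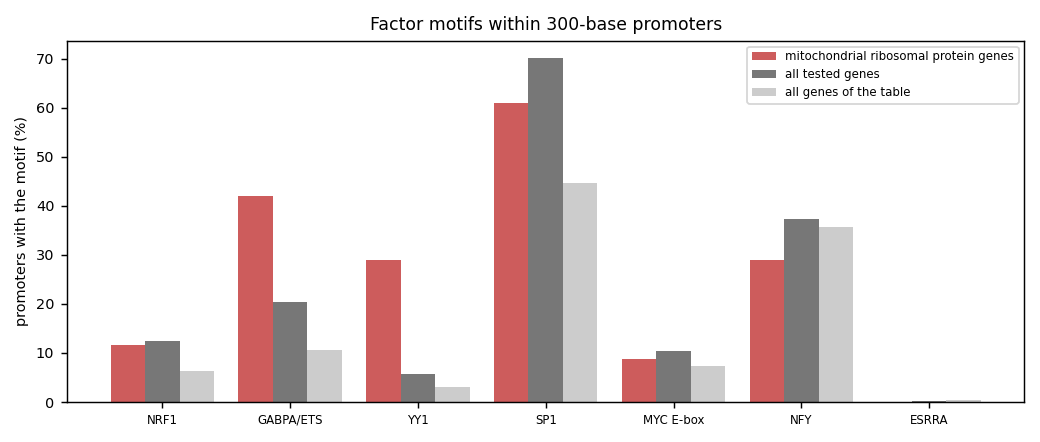
Share of promoters (percent, vertical axis) that hold each of the 7 motifs, for the 69 member promoters, the 10024 promoters of tested genes and all 27305 promoters. The red bars stand above both grey bars for YY1 (29.0%) and ETS (42.0%), and not for the other motifs.

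The mitochondrial ribosomal protein genes were expressed at a similar and fairly high level. Of the 79 identifiers, 78 passed the filter on low counts, which kept 14458 genes in all. The mean TPM over the 4 libraries had a median of 64.4 over these 78 genes, and 75 of them stood above the median of all tested genes, which was 15.0 TPM. The genes between 20 and 150 TPM numbered 72, 5 tested genes were below this band and 1 was above it. From the lowest to the highest tested gene the level differed 17.7-fold. The transcripts are short, with a median effective length of 959 bases against 1980 bases for all tested genes. TPM corrects for this length and was therefore used for all comparisons of level between genes.

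The highest level was that of MRPL37, a large-subunit protein found only in mitochondria, with 168 and 185 TPM in the untreated libraries and 179 and 192 TPM in the hemin libraries. The groups overlapped and the next 3 genes did not reach this level in any library. MRPL28, a large-subunit protein with a bacterial counterpart, was read at 141 and 146 TPM before and at 129 and 146 TPM after hemin. MRPS34, a mitochondria-specific protein of the small subunit, had 141 and 141 TPM before and 148 and 127 TPM after, and MRPL4 of the large subunit had 133 and 141 TPM before and 147 and 136 TPM after. These 3 genes do not differ in level beyond the spread of their libraries, and none of the 4 was called changed.

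At the low end stood MRPL57, a small mitochondria-specific protein of the large subunit, with 9.87 and 8.37 TPM before and 12.5 and 10.2 TPM after hemin. MRPL1, a protein of the mobile stalk of the large subunit, had 9.72 and 7.75 TPM before and 13.5 and 11.4 TPM after. MRPL50, also of the large subunit, had 13.9 and 13.0 TPM before and 13.6 and 15.1 TPM after. MRPL57 and MRPL1 overlap in level, and the mean of MRPL50, 13.9 TPM, lies above theirs of 10.2 and 10.6 TPM.

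**Figure D2:**
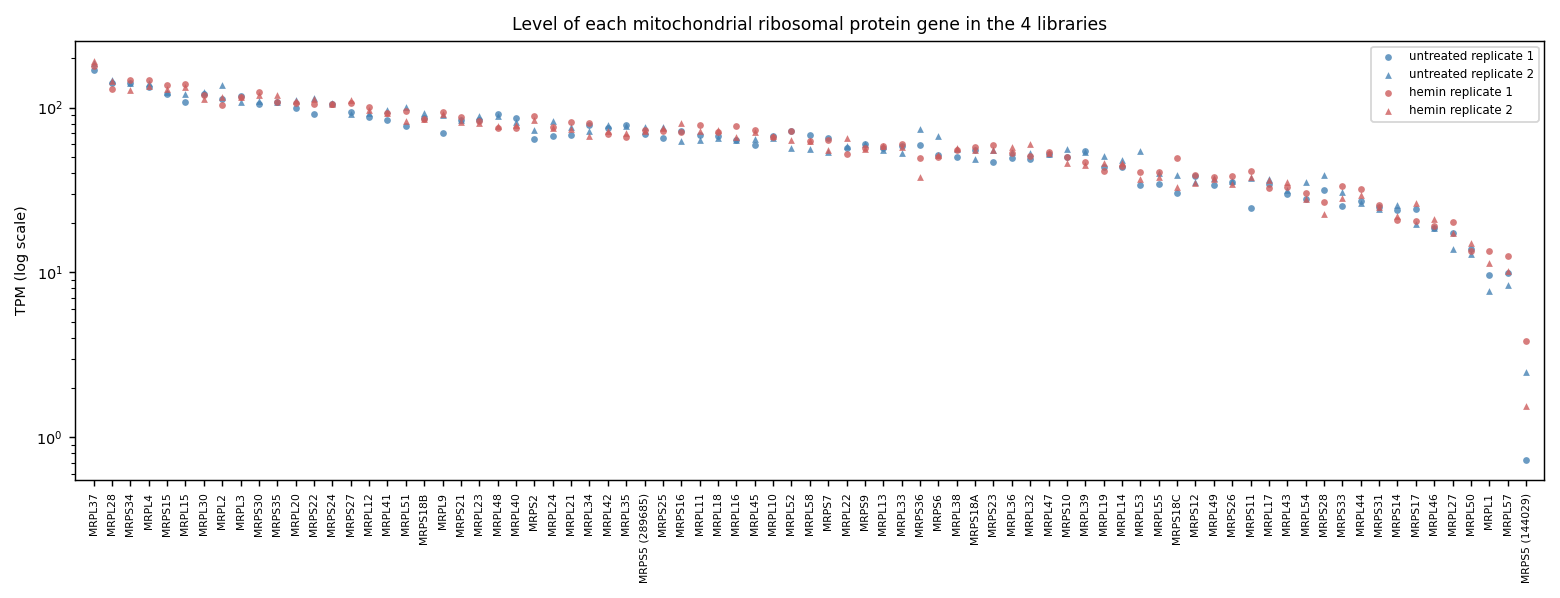
Level of the 79 identifiers (TPM, log axis) in order of their mean, with blue symbols for the untreated and red for the hemin libraries, circles for replicate 1 and triangles for replicate 2. Most genes lie between 20 and 150 TPM, the symbols of the conditions largely overlap, and the last gene, the short identifier of MRPS5, stands apart below all others.

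MRPS5, a small-subunit protein with a bacterial counterpart, is listed under identifiers that overlap on the minus strand of chromosome 2. ENSG00000289685 carried nearly all of the reads, with 748 and 756 expected counts before and 748 and 765 after hemin. ENSG00000144029 carried 3 and 9 before and 14 and 6 after, and did not pass the filter. RSEM's posterior SD, which describes how surely it divided reads between genes that share sequence, was 128% of the count for the latter and 0.776% for the former. The small counts of ENSG00000144029 therefore cannot be told apart from those of the other identifier.

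For most members this division of reads was of little weight. The posterior SD was under 1% of the count for 62 of the 79 identifiers, between 1% and 5% for 14 and at least 5% for 3. Besides the short MRPS5 these were MRPL46 at 7.53% and MRPS18C at 6.05%. The tables also list 79 pseudogenes named after members, of which 22 had any count, 5 passed the filter and none was called changed. The called gene MRPL45 has a pseudogene, MRPL45P2, with 51.3 and 38.6 expected counts before and 43.1 and 38.1 after hemin, and the posterior SD of MRPL45's own count was 1.22%. Of the members, 35 overlap another tested gene, 26 of them on the opposite strand. The counting is not stated to use strand, so reads of such pairs may not have been separated.

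After hemin few of these genes were called changed, and the differences were small. In the quasi-likelihood test of edgeR, after adjustment by Benjamini-Hochberg, 3 of the 78 tested members were called higher (3.85%), and so were 7.00% of all tested genes. No member was called lower, while 7.14% of all tested genes were lower. At an unadjusted p under 0.05, 17 members were higher and none was lower, against 14.8% and 14.6% of all tested genes. DESeq2 and limma also called no member lower, with none (DESeq2) and 5 (limma on log2(TPM + 1)) lower at an unadjusted p under 0.05. The members called higher were MRPS2, MRPL45 and MRPL15.

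Most members had a small difference upward that did not pass the test. The log2 fold change was above 0 in 57 of 78 members (73.1%), against 49.1% of all tested genes, and its median was 0.06 for the members and -0.0048 for all tested genes. The CPM (counts scaled by library size and TMM factor) of the hemin libraries lay above both untreated libraries in 30 members (38.5%), while this was so in 28.1% of all tested genes. It lay below both in 8 members (10.3%), against 29.3% of all tested genes. The fitted values ran from -0.25 for MRPS36 to 0.56 for MRPL1.

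The precision of these values was high enough to bound the change of most members. The median standard error was 0.082 on the log2 scale. The 95% interval of the fold change lay within 1.5-fold in either direction for 74 of 78 members (94.9%), against 61.4% of all tested genes. It lay within 2-fold for all 78, against 79.6% of all tested genes, with the outermost bounds at -0.62 and 0.99. These intervals are from edgeR's fit and rest on 2 libraries in each condition.

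Both subunits held more genes with a value above 0 than below it. In the large subunit 41 of 51 genes (80.4%) had a log2 fold change above 0, against 49.1% of all tested genes, and the median was 0.08. There 2 genes were called higher (3.92%), against 7.00% of all tested genes. In the small subunit 16 of 26 tested genes (61.5%) had a value above 0, the median was 0.04 and 1 was called higher (3.85%). The difference between the subunits was not tested. Summed over the genes, the large subunit had 3382 and 3552 TPM before and 3555 and 3535 TPM after hemin, and the small subunit had 1635 and 1733 TPM before and 1766 and 1713 TPM after. The sums of the conditions overlap for both subunits.

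**Figure D3:**
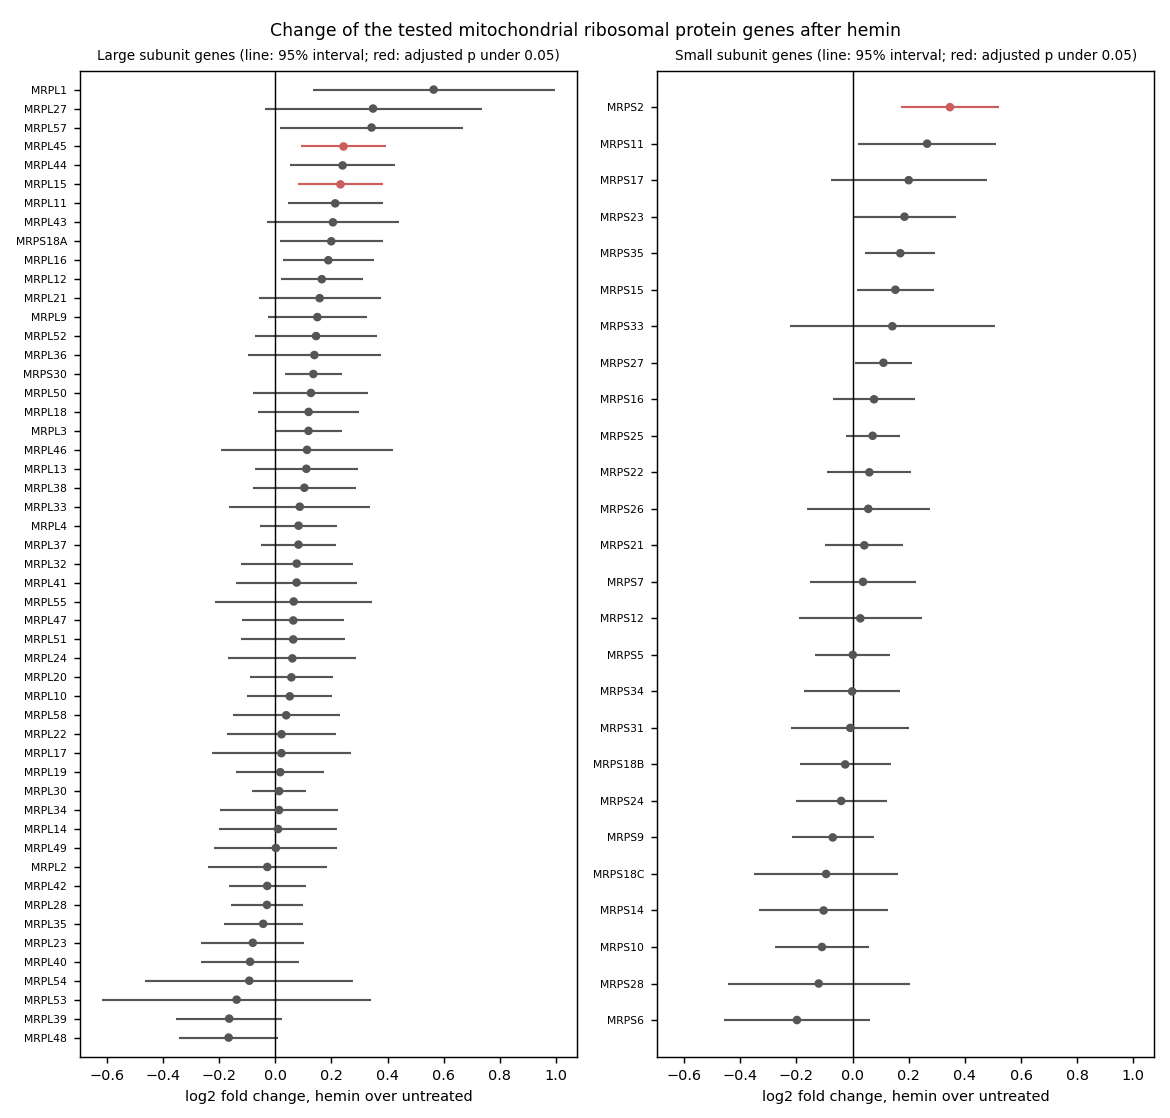
Log2 fold change of hemin over untreated with its 95% interval from edgeR for the 51 large-subunit genes and the 26 tested small-subunit genes; MRPS36 is not drawn. Red marks MRPS2, MRPL45 and MRPL15, the genes with an adjusted p under 0.05, and most of the other intervals cross 0.

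MRPS2, a small-subunit protein with a bacterial counterpart, rose most clearly. It lies on the plus strand of chromosome 9 of GRCh38 from 135499984 to 135504673. Its expected counts were 455 and 504 in the untreated libraries and 594 and 633 in the hemin libraries. Both hemin libraries were above both untreated libraries. The level went from 68.9 ± 5.93 TPM to 86.0 ± 3.13 TPM (SD, n = 2). On the counts edgeR fitted a 1.27-fold increase, a log2 fold change of 0.35 with a standard error of 0.078 and an adjusted p of 0.0187. Without untreated replicate 1 it was 0.24 with an adjusted p of 0.1 by edgeR, above the threshold of 0.05.

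MRPL45, a large-subunit protein that holds the ribosome to the inner membrane near the exit of the nascent chain, rose from 503 and 527 to 594 and 632 expected counts. It lies on the plus strand of chromosome 17 from 38297023 to 38323217. The levels were 62.1 ± 3.69 TPM before and 72.0 ± 1.67 TPM after hemin (SD, n = 2), and the groups did not overlap. The log2 fold change was 0.24 with a standard error of 0.067 and an adjusted p of 0.0411 by edgeR. DESeq2 gave 0.25 with an adjusted p of 0.119, and the gene was past the threshold in 6 of 15 alternatives.

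MRPL15, a large-subunit protein with a bacterial counterpart, rose from 486 and 507 to 571 and 602 expected counts. It lies on the plus strand of chromosome 8 from 54135241 to 54148514. The levels were 115 ± 8.67 TPM before and 136 ± 3.28 TPM after hemin (SD, n = 2), again without overlap. The log2 fold change was 0.23 with a standard error of 0.068, and the adjusted p of 0.0498 by edgeR was at the edge of the threshold of 0.05. It was past the threshold in 5 of 15 alternatives.

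The stretches before the RefSeq start of MRPS2 and MRPL45 are shown because these genes were called and share only SP1 among their motifs. In GENCODE these genes begin further upstream, at 135499984 for MRPS2 and at 38297023 for MRPL45. All of the MRPS2 stretch and part of the MRPL45 stretch therefore lie within the gene as annotated there. Capitals mark the matches of the 7 motifs in the 250 bases before the RefSeq start, in GRCh38.p14 and on the plus strand. MRPS2 has 3 matches to SP1 and no YY1 or ETS letters. MRPL45 has, in this order, NRF1, SP1 and the E-box, and its YY1 letters follow the start as printed above.

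MRPS2, chr9:135500432-135500681: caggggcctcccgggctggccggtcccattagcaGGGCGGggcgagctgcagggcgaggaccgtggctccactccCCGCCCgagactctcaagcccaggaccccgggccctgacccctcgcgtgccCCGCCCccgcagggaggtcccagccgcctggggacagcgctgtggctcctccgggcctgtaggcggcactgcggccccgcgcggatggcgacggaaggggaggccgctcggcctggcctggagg

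MRPL45, chr17:38296918-38297167: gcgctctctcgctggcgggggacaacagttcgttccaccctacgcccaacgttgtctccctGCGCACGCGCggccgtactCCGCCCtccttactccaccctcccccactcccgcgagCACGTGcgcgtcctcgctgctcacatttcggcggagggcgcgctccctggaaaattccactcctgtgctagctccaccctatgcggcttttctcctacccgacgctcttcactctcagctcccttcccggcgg

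Members with and without these motifs were described apart. For the 20 members with YY1 letters the median was 0.07 on the log2 scale, and 1 of them was called higher. The 29 members with ETS letters had a median of 0.06 and none was called at an adjusted p under 0.05 by edgeR, with 4 at an unadjusted p under 0.05. The 28 members with neither had a median of 0.08 and 1 was called. These counts of calls stand beside the 7.00% of all tested genes called higher. These groups were not compared by a test.

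The largest fitted increase was that of MRPL1, which was read by 55 and 44 expected counts before and by 74 and 73 after hemin. The groups did not overlap, but the counts were among the lowest of the members and the log2 fold change of 0.56 had a standard error of 0.19 and an adjusted p of 0.0809 by edgeR. MRPL27, a large-subunit protein close to the catalytic centre, had 75 and 62 counts before and 91 and 84 after, with a log2 fold change of 0.35 and an adjusted p of 0.216 by edgeR. MRPL57 had 121 and 99 counts before and 148 and 132 after, with a log2 fold change of 0.34 and an adjusted p of 0.149 by edgeR. In CPM the hemin libraries were higher than both untreated libraries for each of these genes, and none passed the test. The genes were picked for the size of their increase, and 28.1% of all tested genes lay apart in this direction. With a library left out the values ran from 0.45 to 0.69 for MRPL1, from 0.23 to 0.46 for MRPL27 and from 0.20 to 0.48 for MRPL57, the last 2 lowest without hemin replicate 1.

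The most negative value, -0.25, belonged to MRPS36, the member that is not a ribosomal protein. Its expected counts were 175 and 186 before and 165 and 139 after hemin, with an adjusted p of 0.25 by edgeR, and its CPM overlapped between the groups. Its pseudogene MRPS36P1 went the other way, with 18.2 and 6.73 expected counts before and 25.4 and 34.7 after hemin (adjusted p = 0.0798 by edgeR). The posterior SD was 3.36% of the count for MRPS36 and 26.2% for MRPS36P1. Whether reads were divided differently between them was not tested. MRPS6, a small-subunit protein with a bacterial counterpart, had 297 and 364 counts before and 274 and 306 after (log2 fold change -0.20, adjusted p = 0.298 by edgeR). It overlaps SLC5A3 on the same strand, which had a log2 fold change of -0.05. MRPL48 of the large subunit had 340 and 316 counts before and 272 and 316 after (log2 fold change -0.17, adjusted p = 0.193 by edgeR). MRPL39, a large-subunit protein related to threonyl-tRNA synthetase, had 294 and 278 counts before and 257 and 256 after (log2 fold change -0.16, adjusted p = 0.234 by edgeR). In CPM both hemin libraries were below both untreated libraries for MRPL48 and MRPL39 and not for MRPS6. These genes were picked for the size of their decrease, and 29.3% of all tested genes lay apart in this direction. With a library left out the value of MRPS6 ran from -0.38 without untreated replicate 1 to -0.00061 without untreated replicate 2, and that of MRPS36 from -0.44 without hemin replicate 1 to -0.0765 without hemin replicate 2. That of MRPL39 was -0.10 without hemin replicate 2.

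The MRPS18 paralogues, which descend from the same bacterial protein and sit at different places, showed no called change. MRPS18A, in the large subunit, had 259 and 247 expected counts before and 288 and 296 after hemin (log2 fold change 0.20, adjusted p = 0.138 by edgeR). MRPS18B, in the small subunit, had 614 and 646 before and 623 and 621 after (log2 fold change -0.03). MRPS18C, also in the small subunit, had 164 and 184 before and 158 and 170 after (log2 fold change -0.09). The signs of MRPS18B and MRPS18C turned under several alternatives. MRPL58, a peptidyl-tRNA hydrolase built into the large subunit that releases chains from stalled ribosomes, had 268 and 244 counts before and 244 and 285 after (log2 fold change 0.04), and MRPL46 of the large subunit had 103 and 100 before and 100 and 121 after (log2 fold change 0.11).

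The library with the lowest levels was most often untreated replicate 1. It held the lowest CPM of 46 of the 78 tested members (59.0%), while it held the lowest of 25.7% of all tested genes. It held the highest CPM of 4 members (5.13%), against 25.3% of all tested genes. The summed CPM of the members was 4052 and 4298 in the untreated libraries and 4407 and 4340 in the hemin libraries, so the sums did not overlap in this scaling. The summed TPM did overlap, with 5077 and 5359 before and 5371 and 5287 after hemin. The share of all counts on members overlapped too, with 0.432% in untreated replicate 2 against 0.435% and 0.425% in the hemin libraries. Untreated replicate 1 was the lowest in each of these measures, with 0.411% of its counts on members. Without it the median log2 fold change of the members was 0.03 and no member was called at an adjusted p under 0.05 by edgeR, with 5 higher and 3 lower at an unadjusted p under 0.05. Without untreated replicate 2 the median was 0.11 and 2 members were called higher.

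**Figure D4:**
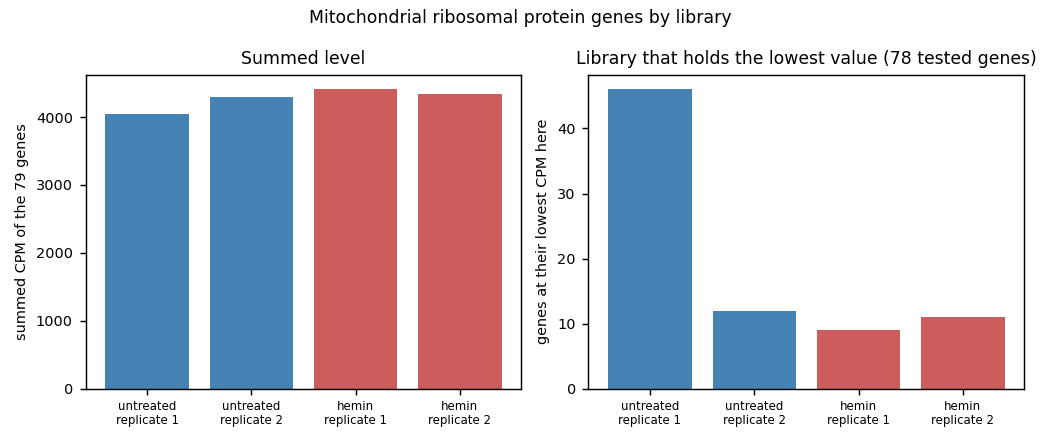
Left, summed CPM of the 79 identifiers in each library; right, the number of the 78 tested members whose lowest CPM is in that library. Untreated replicate 1 has the lowest sum, 4052, and holds the lowest value of 46 members, against 9 to 12 in the other libraries.

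The effective length that RSEM reports is weighted by the abundance of a gene's transcripts, so it moves when the isoforms of a gene change their shares. Of the 70 tested members with more than 1 transcript, 20 had lengths that did not overlap between the groups (28.6%), while this was so for 34.8% of all such genes. This count sets no minimum difference, and it includes MRPL45, whose group means differed by 0.01 bases. In 3 members (4.29%) the group means also differed by at least 10%, against 17.3% of all such genes. These 3 are named after their values were seen. MRPS28 of the small subunit went from 528 and 442 bases to 568 and 681 bases, a mean difference of 28.7%. MRPS36 went from 523 and 465 bases to 615 and 615 bases, a difference of 24.6%. MRPS27, a small-subunit protein with pentatricopeptide repeats, went from 2445 and 2549 bases to 2340 and 2145 bases, a difference of -10.2%.

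Because TPM divides by this length, the TPM of these genes moved more than their counts. MRPS28 had 31.7 and 38.9 TPM before and 26.7 and 22.5 TPM after hemin, while its expected counts were 94 and 93 before and 82 and 91 after. MRPS36 had 59.6 and 74.0 TPM before and 49.6 and 38.2 TPM after. MRPS27 had 93.8 and 91.4 TPM before and 106 and 112 TPM after, with a log2 fold change of 0.11 in counts and an adjusted p of 0.142 by edgeR. For MRPS18C and MRPS11 the means differed by -20.1% and -10.2%, but the values of the groups overlapped. No test of isoform use was run on these lengths.

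**Figure D5:**
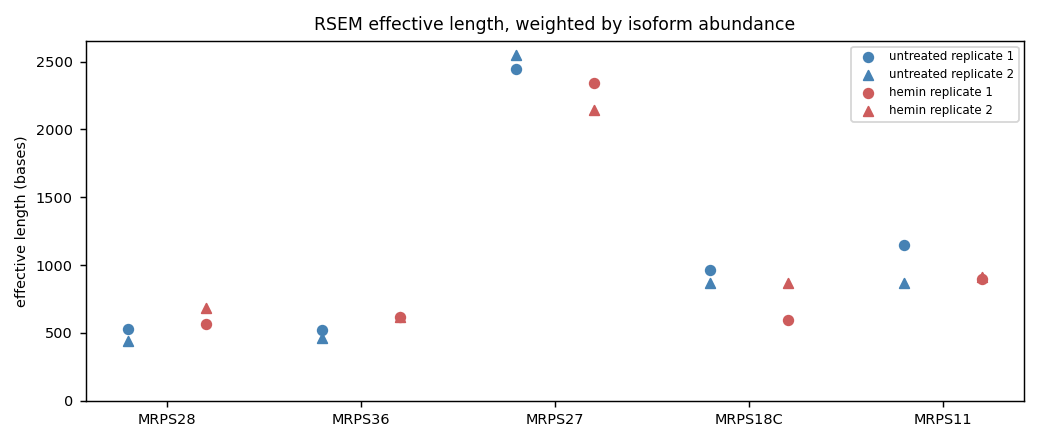
Effective length (bases) in each library for the 3 members whose groups did not overlap and differed by at least 10% (MRPS28, MRPS36, MRPS27) and for MRPS18C and MRPS11. In the last 2 genes the ranges of the groups overlap.

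Many members share a start region with another gene. Of the 78 tested members, 28 (35.9%) have a tested neighbour on the opposite strand whose start lies within 1000 bases, against 3091 of 14443 tested genes (21.4%). The count did not require that the genes of a pair point away from each other. Some pairs overlap, such as MRPL13 with MTBP and MRPS34 with EME2. MRPL46 and MRPS11 face away from each other with starts 63 bases apart, and their log2 fold changes were 0.11 and 0.27, neither past the test. MRPL57 and SKA3 start 106 bases apart with 0.34 and 0.32, and MRPL27 and EME1 start 13 bases apart with 0.35 and -0.05. MRPS34 overlaps EME2 on the opposite strand, and EME2 rose (log2 fold change 0.41, adjusted p = 0.0177 by edgeR) while MRPS34 had 686 and 688 counts before and 713 and 666 after.

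The remaining proteins of the mitochondrial ribosome, whose symbols do not begin with MRP, were not called changed by edgeR with the settings used throughout. All 5 had a log2 fold change above 0 with a median of 0.11, and none was called by edgeR after adjustment, with 2 higher at an unadjusted p under 0.05. The GTP-binding protein DAP3 had 1560 and 1500 expected counts before and 1614 and 1737 after hemin, and the pentatricopeptide protein PTCD3 had 1399 and 1385 before and 1352 and 1597 after. CHCHD1 had 170 and 172 counts before and 185 and 185 after. AURKAIP1 had 552 and 577 before and 633 and 675 after (log2 fold change 0.20, adjusted p = 0.0663 by edgeR). GADD45GIP1, at the exit of the nascent chain, had 445 and 415 before and 449 and 471 after. AURKAIP1 was called higher in 5 of 15 alternatives, such as no filter on counts (adjusted p = 0.0266 by edgeR), and DAP3 in 1, the length correction.

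Of 28 factors that assemble the mitochondrial ribosome, 2 were called higher (7.14%, against 7.00% of all tested genes) and none lower, and the median log2 fold change was 0.13. TRUB2, a pseudouridine synthase that acts on mitochondrial RNA, rose from 685 and 685 to 938 and 850 expected counts (log2 fold change 0.38, adjusted p = 0.0175 by edgeR). ERAL1, a chaperone of the small-subunit ribosomal RNA, rose from 354 and 330 to 404 and 427 (log2 fold change 0.27, adjusted p = 0.0313 by edgeR). Of 22 factors of mitochondrial translation, 2 were called higher (9.09%, against 7.00% of all tested genes) and none lower, with a median of 0.07. GFM1, an elongation factor, rose from 367 and 335 to 433 and 498 (log2 fold change 0.40, adjusted p = 0.00708 by edgeR), and LRPPRC, which binds mitochondrial mRNAs, rose from 4847 and 4649 to 5152 and 5769 (log2 fold change 0.19, adjusted p = 0.012 by edgeR). ERAL1 lost its call in 8 of 15 alternatives, among them DESeq2 (adjusted p = 0.15) and each library left out, TRUB2 in 4, LRPPRC in 3 and GFM1 in 2. Without untreated replicate 1 no assembly factor and 1 translation factor were called by edgeR.

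The list of 13 genes for mitochondrial transcription and RNA processing also held TWNK, a helicase of mitochondrial DNA, which was not called. Of these 13 genes, 3 were called higher (23.1%, against 7.00% of all tested genes) and none lower, with a median log2 fold change of 0.14. TFB2M, a factor for the initiation of mitochondrial transcription, rose from 243 and 227 to 306 and 347 expected counts (log2 fold change 0.47, adjusted p = 0.00609 by edgeR). TFAM, which packages mitochondrial DNA and starts its transcription, rose from 669 and 596 to 754 and 821 (log2 fold change 0.31, adjusted p = 0.00791 by edgeR). TRMT10C, a subunit of the mitochondrial RNase P, rose from 222 and 211 to 274 and 300 (log2 fold change 0.40, adjusted p = 0.0131 by edgeR). The hemin libraries were above both untreated libraries for all 3. TFB2M and TFAM each lost the call in 2 of 15 alternatives. TRMT10C lost its call in 5 of 15 alternatives, with an adjusted p of 0.0718 by DESeq2, 0.0678 by edgeR without untreated replicate 1 and 0.0603 without untreated replicate 2, so that 2 of the 13 genes were called there.

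The RNAs of the mitochondrial ribosome both rose. MT-RNR1, the RNA of the small subunit, had 12208 and 11114 expected counts before and 14963 and 16365 after hemin (log2 fold change 0.42, standard error 0.037, adjusted p = 2.9e-04 by edgeR). MT-RNR2, the RNA of the large subunit, had 258400 and 248746 counts before and 278549 and 331767 after (log2 fold change 0.26, standard error 0.041, adjusted p = 0.00437 by edgeR). MT-RNR2 lost its call in 2 of 15 alternatives and MT-RNR1 in 1. The libraries were made from poly(A) RNA, so the counts of both RNAs cover only the molecules that passed this selection. Among the 13 mRNAs of the mitochondrial genome 2 were called higher (15.4%, against 7.00% of all tested genes). These were MT-CYB (log2 fold change 0.35, adjusted p = 0.0015 by edgeR) and MT-ND1 (log2 fold change 0.23, adjusted p = 0.00503 by edgeR), and each lost its call in 2 of 15 alternatives. At an unadjusted p under 0.05 by edgeR, MT-ND4 and MT-ND4L were lower. None of the 13 mRNAs was called lower after adjustment, against 7.14% of all tested genes, and their median was -0.03. With library size as the only scaling 3 of these mRNAs were called lower, and without hemin replicate 2, the library with 13.6% of its counts on the mitochondrial genome, 4 were. RNA was measured in bulk, so a change in the RNA of each cell and a change in the share of cells cannot be told apart.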

How the data were processed

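Values are from 4 poly(A) RNA-seq libraries of K562. Per the labels and the study's methods, the authors trimmed reads of 50 bases (Trimmomatic 0.39) and quantified them with STAR 2.7.5c and RSEM 1.3.1 on GRCh38 with the Ensembl annotation. The deposited expected counts and posterior mean counts are unnormalized estimates that divide shared reads between genes. The authors' TPM are scaled by effective length. The authors' FPKM tables were not used here. The RSEM options listed in the study's methods include no strand setting.

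The expected counts were rounded, filtered (filterByExpr), scaled by TMM and tested by edgeR 4.0.16 (quasi-likelihood, condition only, R 4.3.3) over 14458 genes, adjusted by Benjamini-Hochberg at 0.05. The fit was also run on simulated counts with the same dispersion for every gene, a simpler setting than these data, so it does not bear on the calls. Members and lists were chosen with earlier results of these data known, so no list was tested. Members named are those called, the 4 largest and 4 smallest changes, the 4 highest and 4 lowest levels, the 3 least certain counts, those that failed the filter, the MRPS18 paralogues, MRPS36 and MRPL58; other lists by smallest p. MRPS27, MRPS28, MRPS11 and neighbours were named after their values were seen. Coordinates and neighbours are from GENCODE 44 (GRCh38), promoters from RefSeq (GRCh38.p14). The alternatives tried were DESeq2 1.42.0, RLE factors, scaling by library size alone, other count filters, a replicate block, each library left out, posterior mean counts, limma 3.58.1 on log2(TPM + 1) and log2(TPM + 0.1), and loess corrections for length and GC content.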

Additional observations from a re-analysis of the deposited data

How the results depend on the processing

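No member was called lower under any of the 15 alternatives, with edgeR, DESeq2 or limma. The number of members called higher was 3 with RLE factors and the length correction, 4 with no filter, the filter of at least 20 counts and posterior mean counts, and 2 with the GC correction. It was 1 with library size only, 1 with DESeq2, 1 with the replicate block and 0 with limma on either TPM scale (6 higher at an unadjusted p under 0.05 on each), and ranged from 0 to 2 with a library left out; the cause was not tested. The genes called higher and lower among all genes were 602 and 484 with DESeq2, 14 and 33 with limma on log2(TPM + 1), 15 and 34 on log2(TPM + 0.1), and with a library left out 469 to 934 and 512 to 884. With library size only, 5.04% of genes were higher and 9.39% lower. The median log2 fold change of the members was 0.032 to 0.113 with a library left out and 0.025 with library size only, where 46 of 78 members were above 0. MRPS2 kept its call in 12 of 15 alternatives, MRPL45 in 6 and MRPL15 in 5.

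Signs turned for members that were not called. MRPS34 was 0.0029 with RLE factors, 0.0092 with DESeq2, 0.011 with no filter, 0.011 with the length and 0.063 with the GC correction, and -0.11 to 0.11 with a library left out. MRPL28 was 0.0301 with the GC correction and -0.0733 to 0.0169 with a library left out. MRPL58 was -0.00018 with library size only and -0.0153 to 0.0946 with a library left out. MRPS18C was 0.224 and 0.229 with limma and -0.214 to 0.0341 with a library left out, MRPS18B was -0.102 to 0.0534 with a library left out, and PTCD3 was -0.0081 and -0.0082 with limma.

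No pairing by replicate number was detected, as the deviations of untreated 1 and hemin 1 correlated at r = 0.0047 over 14458 genes. Such a value from 2 libraries per condition cannot exclude that replicates were handled in pairs. With 2 libraries per condition, a library left alone was assumed to vary like the others.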
